A study of Mus musculus with 24 samples.

Results

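Innate lymphoid cells (ILC) are tissue lymphocytes without a rearranged antigen receptor, and they read their surroundings through receptors for metabolites, lipids and neuropeptides. The 9 genes described here encode such receptors, a receptor partner, a ligand and a ligand-producing enzyme. They were chosen by name, as receptors and ligands by which ILC sense fatty acids, oxysterols, adenosine, lipids and neuropeptides; no count threshold was used, but earlier results of these data were known when they were chosen. They are Ffar2, Gpr183, Vipr2, Ramp1, Adm, Ptger4, Adora2a, Nt5e and S1pr1. All 9 were found among the 55487 gene IDs of the count table, and all 9 were among the 21286 genes that passed the expression filter and were tested.

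The cells came from the lamina propria of the small intestine of mice aged 8 to 12 weeks. DKO mice carried Vav1-Cre, whose promoter is active across blood cells, together with floxed Nr1d1 and Nr1d2, the genes of the nuclear receptors REV-ERBα and REV-ERBβ. WT mice were littermate controls that carried the floxed genes. The labels name 4 sorted populations in each genotype, ILC1, NKp46, CCR6 and DN, with 3 libraries per group and 24 in all. The series title refers to ILC1 and to subsets of ILC3. The sources used here say neither what DN stands for nor how the cells were stained. Nor do they say whether the 3 libraries of a group came from separate mice. A p-value is therefore set against a spread between libraries that may be technical in part. For each gene this spread was estimated over all 24 libraries together, so libraries outside a comparison also bear on its p-value.

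The libraries held 12763228 to 84395154 counts each. WT ILC1 library 2 stood apart, with the lowest total. Protein-coding genes took 84.1% of its counts, while the other libraries had 91.6% to 94.9%, and ribosomal RNA took 11.1%, while they had 1.61% to 4.8%. Ncr1, which encodes NKp46, averaged 1423 and 464 CPM (counts per 1000000 counts, with scaled library sizes) in DKO ILC1 and DKO NKp46 and 1614 and 824 CPM in WT ILC1 and WT NKp46. It averaged 2.59 and 41.4 CPM in DKO CCR6 and DKO DN and 9.87 and 55.5 CPM in WT CCR6 and WT DN. Ccr6 averaged 766 CPM in DKO CCR6 and 1400 CPM in WT CCR6. Nr1d1 averaged 486, 1061, 1500 and 1654 CPM in DKO ILC1, NKp46, CCR6 and DN, and 95.6, 601, 574 and 425 CPM in WT ILC1, NKp46, CCR6 and DN. Counts summed over a whole gene cannot show a deleted exon, and the labels do not say which exons were floxed, so the genotype could not be checked from these counts and every direction below rests on the labels.

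Markers of other cells and of the sorted cells moved with genotype in some populations. The summed level of 7 T cell markers was 1080 to 1230 CPM in DKO DN and 2560 to 2720 CPM in WT DN, all 7 were detected in every library, and 6 of the 7 were called lower in DKO DN. The summed level of 6 ILC2 markers was 619 to 919 CPM in DKO DN and 1150 to 1610 CPM in WT DN, and 1 of the 6 was called lower. The summed level of 7 myeloid markers was 60.6 to 82.4 CPM in DKO ILC1 and 173 to 383 CPM in WT ILC1, with none of the 7 called, and 8.02 to 11.6 CPM in DKO CCR6 and 14.2 to 26.5 CPM in WT CCR6, with 1 called lower. The sum of 6 B and plasma cell markers was 182 to 627 CPM in DKO ILC1 and 110 to 159 CPM in WT ILC1, with 0 called. It was 43.3 to 107 CPM in DKO CCR6 and 114 to 687 CPM in WT CCR6, with 1 called lower. The ILC2 sum was 379 to 448 CPM in DKO CCR6 and 454 to 519 CPM in WT CCR6. The sum of 6 epithelial markers was 7.64 to 10.9 CPM in DKO DN and 2.12 to 3.11 CPM in WT DN. Of these, 5 were tested and 0 called, and their median log2 fold change was -0.53, opposite to the sum. The sum of 10 stromal and endothelial markers was 139 to 141 CPM in DKO NKp46 and 108 to 126 CPM in WT NKp46, with 0 called. Their median log2 fold change was -2.12, also opposite to the sum. Each DKO NKp46 library held 5 to 6 of these 10 markers, and each WT NKp46 library 7 to 9. The sum of 10 sorting and lineage markers was 2820 to 3410 CPM in DKO CCR6 and 4880 to 5640 CPM in WT CCR6. It was 1970 to 2270 CPM in DKO NKp46 and 3330 to 3680 CPM in WT NKp46. In DN it was 1710 to 2040 CPM in DKO and 2560 to 2890 CPM in WT, while the ILC1 groups overlapped. Of these 10 markers, 2, 3, 5 and 4 were called lower in DKO ILC1, NKp46, CCR6 and DN, and 0 higher. Sums also differed among WT populations. The T cell sum was 743 to 1010 CPM in WT ILC1, 610 to 748 in WT CCR6 and 457 to 541 in WT NKp46, all below WT DN. The ILC2 sum was 327 to 568 CPM in WT ILC1 and 450 to 481 in WT NKp46, also below WT DN. The myeloid sum was 7.93 to 38.6 CPM in WT NKp46 and 8.54 to 29.7 in WT DN, below WT ILC1. The part of these shifts and differences in the results below was not tested. In bulk RNA from sorted cells, fewer cells that express a gene and less RNA of it per cell cannot be told apart.

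REV-ERBs are heme-binding repressors of the circadian clock that bind the hexamer AGGTCA preceded by an A/T-rich stretch, and clock activators such as BMAL1 bind CACGTG. Most of the receptors here couple to G proteins. FFAR2 senses short-chain fatty acids made by gut bacteria, and in mouse intestine it is known for its role in ILC3. GPR183 (EBI2) senses oxysterols and guides ILC3 to gut lymphoid tissue. VPAC2, RAMP1 and adrenomedullin belong to neuropeptide signalling, EP4 senses prostaglandin E2, CD73 makes the adenosine that the Adora2a product senses, and S1PR1 senses sphingosine 1-phosphate and is needed for exit from tissue into lymph.

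Ffar2 and Ramp1 were the members called in all 4 populations, in opposite directions, and the promoters that RefSeq gives for both (build GRCm38.p6, 250 bases before to 50 bases after the transcript start) are shown for that reason. RefSeq gives 4 such entries for Ffar2 and 1 for Ramp1, and the one that begins at the annotated gene start is shown. Each is written 5′ to 3′ on the gene's own strand, and capitals mark matches to AGGTCA or CACGTG on either strand, so that TGACCT is AGGTCA read on the other strand. The Ffar2 sequence is chr7:30823726-30824025 on the minus strand, and the Ramp1 sequence is chr1:91179572-91179871 on the plus strand.
Ffar2: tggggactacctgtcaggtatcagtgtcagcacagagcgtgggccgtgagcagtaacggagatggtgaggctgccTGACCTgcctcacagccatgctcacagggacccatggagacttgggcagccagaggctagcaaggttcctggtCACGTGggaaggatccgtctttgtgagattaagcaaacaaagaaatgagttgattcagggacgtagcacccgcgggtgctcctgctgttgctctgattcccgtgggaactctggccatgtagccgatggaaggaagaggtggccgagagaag
Ramp1: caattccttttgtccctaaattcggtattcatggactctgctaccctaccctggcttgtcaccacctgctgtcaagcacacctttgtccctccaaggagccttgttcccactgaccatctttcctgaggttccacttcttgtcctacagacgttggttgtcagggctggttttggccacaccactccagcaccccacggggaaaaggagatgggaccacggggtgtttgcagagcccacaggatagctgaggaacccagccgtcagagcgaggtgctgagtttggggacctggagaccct

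In the Ffar2 window shown, AGGTCA on the opposite strand begins at position -175 from the transcript start and CACGTG at position -102. Of the other 3 Ffar2 entries, 2 held AGGTCA, 3 held GGGTCA and 0 held CACGTG. The 2 with AGGTCA overlap (chr7:30821143-30821442 and chr7:30821090-30821389), so that their AGGTCA match is 1 site, and they also share 1 GGGTCA site. The Ramp1 window held neither of the hexamers marked in capitals. AGGTCA on either strand was in 16.3% of 32851 RefSeq promoters of this length and CACGTG in 7.15%, so both are common. RefSeq entries were matched for 7 of the 9 members, 10 entries in all. The entries of Adm, Nt5e, Vipr2, Gpr183 and Ptger4 held neither of these hexamers, nor GGGTCA (13.7% of promoters) nor the cAMP response element TGACGTCA (1.79%). A match describes the letters of the window and not a bound site.

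The question of the genotype comparison was how loss of REV-ERBs bears on each ILC population. A gene was called where edgeR's quasi-likelihood test gave a p under 0.05 after adjustment over all 21286 genes by Benjamini-Hochberg. Members were called 14 times in 36 tests (9 members in 4 populations), 6 times higher and 8 times lower in DKO. Of the 9 members, 6 were called in at least 1 population, against 7.65% of all genes tested, and Vipr2, Ptger4 and S1pr1 were called in none. In ILC1, 2 members were called higher and 1 lower in DKO, against 0.78% and 0.277% of all genes (1.06% together). In NKp46, 2 were called higher and 2 lower, against 1.99% and 2.17% (4.16%). In CCR6, 1 was called higher and 2 lower, against 1.93% and 2.04% (3.97%). In DN, 1 was called higher and 3 lower, against 1.49% and 1.34% (2.83%). The 3 DKO libraries lay all above the 3 WT libraries for 3 members in ILC1 (6.53% of all genes), 2 in NKp46 (9.76%), 1 in CCR6 (11.5%) and 1 in DN (11.2%). They lay all below for 6 members each in CCR6 (13.3%) and DN (12.8%), for 4 in NKp46 (11.7%) and for 1 in ILC1 (4.26%). The median log2 fold change of the 9 members was -1.19 in CCR6 and -1.15 in DN, but -0.18 in NKp46 and -0.14 in ILC1, beside medians over all genes between -0.044 and 0. In the mean over the 4 populations Ramp1 was called higher and Ffar2, Vipr2, Ptger4 and Nt5e lower, against 4.81% and 5.99% of all genes (10.8% together).

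**Figure D1:**
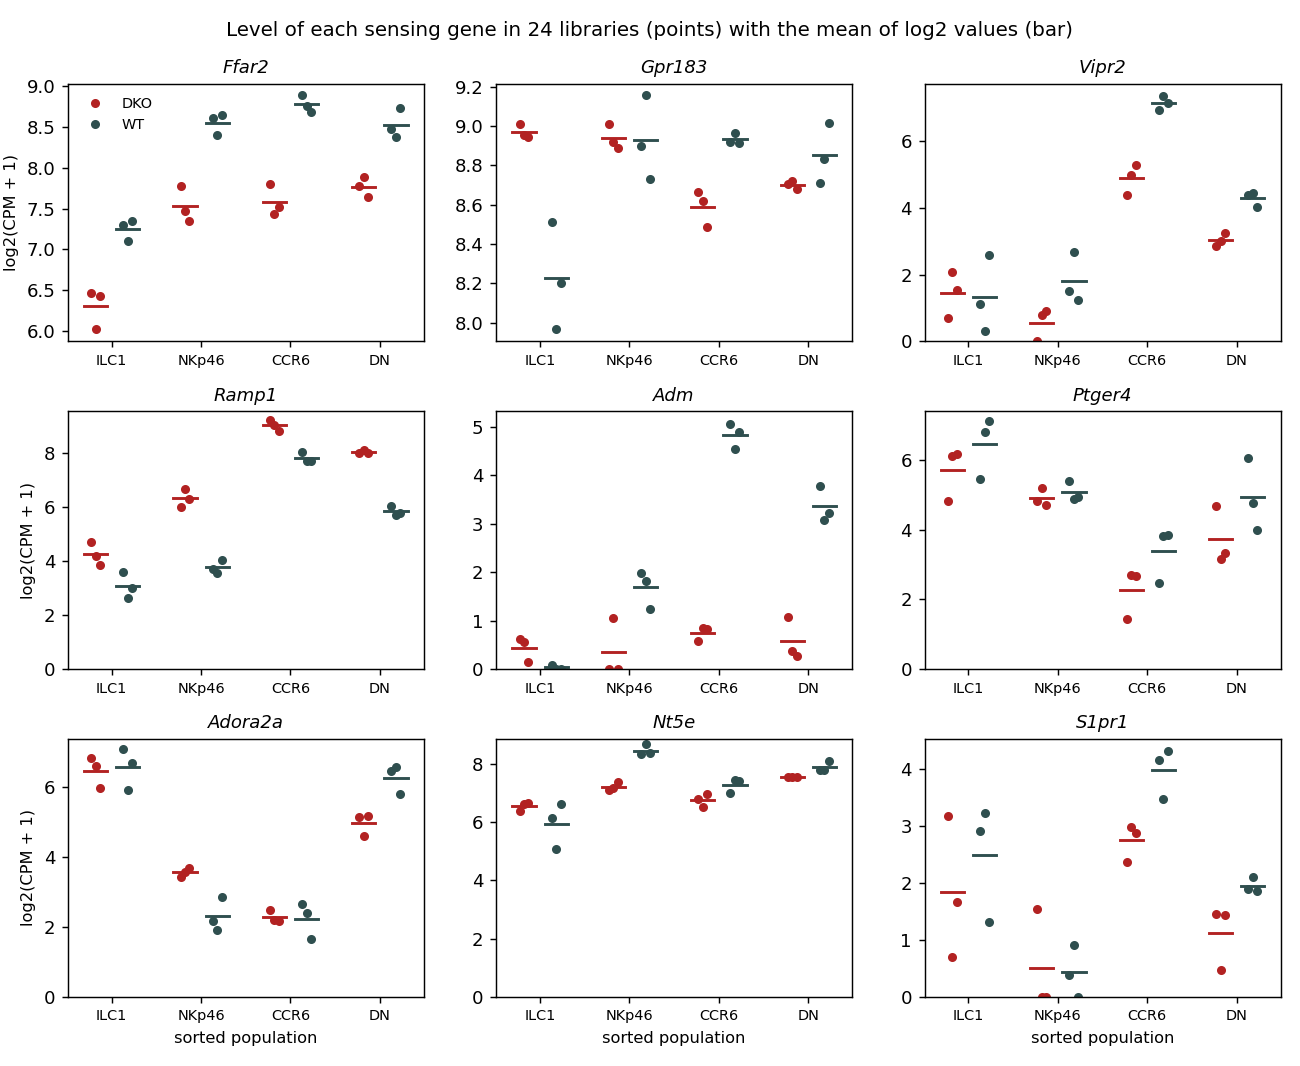
Level of each of the 9 genes in every library, as log2(CPM + 1), with DKO left of WT in each of the 4 sorted populations. Points are libraries (3 per group) and bars their mean. Ffar2 is lower and Ramp1 higher in DKO in all 4 populations, and Vipr2 and Adm are highest in WT CCR6.

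Ffar2, the short-chain fatty acid receptor, was lower in DKO in all 4 populations. Ffar2 lies on chromosome 7 (GRCm38, 30818348 to 30823775, minus strand). It had 87.3, 63.8 and 84.8 CPM in DKO ILC1, against 157, 136 and 162 CPM in WT ILC1. In NKp46 it had 218, 176 and 162 CPM in DKO, against 391, 338 and 399 CPM in WT. Every DKO library lay below every WT library in these 2 populations and in the other two. In CCR6 Ffar2 had 222, 171 and 182 CPM in DKO, against 473, 433 and 410 CPM in WT. In DN it had 219, 235 and 199 CPM in DKO, against 356, 331 and 423 CPM in WT.

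The log2 fold change of Ffar2 (DKO over WT, ± SE) was -0.95 ± 0.144 in ILC1 (adjusted p = 5.2e-04) and -1.02 ± 0.144 in NKp46 (adjusted p = 1e-04). It reached -1.19 ± 0.144 for CCR6 (adjusted p = 1e-05) and -0.77 ± 0.143 for DN (adjusted p = 0.0024). Averaged over the 4 populations it was -0.98 ± 0.0719 (adjusted p = 1.5e-09). A difference between the populations in this effect was not detected (adjusted p = 0.69). Of all genes tested, 21 were called lower in all 4 populations, a share of 0.0987%. In WT cells Ffar2 was lower in ILC1 than in the other populations, by log2 fold changes of -1.31 against NKp46 (adjusted p = 1.8e-06), -1.53 against CCR6 (6.4e-08) and -1.28 against DN (2.5e-06), while the pairs among NKp46, CCR6 and DN were not called. A fit on the 6 ILC1 libraries alone gave Ffar2 a log2 fold change of -0.96 in ILC1 with an adjusted p of 0.36.

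Of 13 other tested receptors for fatty acids and small metabolites, none was called in ILC1, 2 were called higher and 1 lower in NKp46, and 2 were called lower in each of CCR6 and DN. Gpr132, a proton and lipid receptor, was higher in DKO NKp46 by 0.63 (log2, adjusted p = 0.0051). Gpr65, a proton receptor, was higher in DKO NKp46 by 0.61 (adjusted p = 0.022) and lower in DKO DN, at -0.71 (adjusted p = 0.0074). Cnr2, the cannabinoid receptor of leukocytes, was lower in DKO NKp46 (-1.69, adjusted p = 0.0095) and in DKO CCR6 (-1.59, adjusted p = 0.012). Gpr18 was lower in DKO CCR6 (-1.36, adjusted p = 0.025).

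Gpr183, the oxysterol receptor, was called higher in DKO ILC1 and not called in the other populations, and its response differed between them. Gpr183 (chromosome 14, 121952551 to 121965195, minus strand) had 515, 494 and 492 CPM in DKO ILC1, against 365, 249 and 293 CPM in WT ILC1, with no overlap. In CCR6 it had 404, 392 and 358 CPM in DKO, against 483, 499 and 482 CPM in WT, with every DKO library below every WT library. In NKp46 it had 515, 483 and 472 CPM in DKO and 476, 570 and 424 CPM in WT, and in DN 416, 421 and 409 CPM in DKO and 418, 454 and 517 CPM in WT. The DKO NKp46 values lay inside the WT range, and the DN groups overlapped.

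The log2 fold change of Gpr183 was 0.73 ± 0.123 in ILC1 (adjusted p = 0.0018). It was -0.34 ± 0.122 for CCR6 (adjusted p = 0.16) and -0.16 for DN (adjusted p = 0.73), and the NKp46 groups had nearly the same mean (adjusted p = 1). A joint test of whether the 4 effects were equal gave an adjusted p of 0.0059, against 1.37% of all genes called in that test. The effect in ILC1 exceeded that in CCR6 by 1.07 ± 0.173 (adjusted p = 0.0018) and that in DN by 0.88 (adjusted p = 0.022), and the difference from NKp46 was 0.73 (adjusted p = 0.061). The joint test and the difference from CCR6 held without any 1 library, while the difference from DN was lost without any DKO DN library, DKO ILC1 library 1 or 2, or WT DN library 2 or 3 (adjusted p = 0.063 to 0.12), and that from NKp46 was called without WT ILC1 library 1 (0.87, adjusted p = 0.014). In WT cells Gpr183 was lower in ILC1 than in NKp46 (-0.70, adjusted p = 5.6e-04), CCR6 (-0.69, adjusted p = 2.8e-04) and DN (-0.62, adjusted p = 0.0022). With a fit on the ILC1 libraries alone, the ILC1 effect was 0.72 with an adjusted p of 0.46. Of 6 tested genes that make or sense oxysterols, none was called in any population. With 7.65% of all genes called in at least 1 population, a lack of calls among 6 genes says little.

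**Figure D2:**
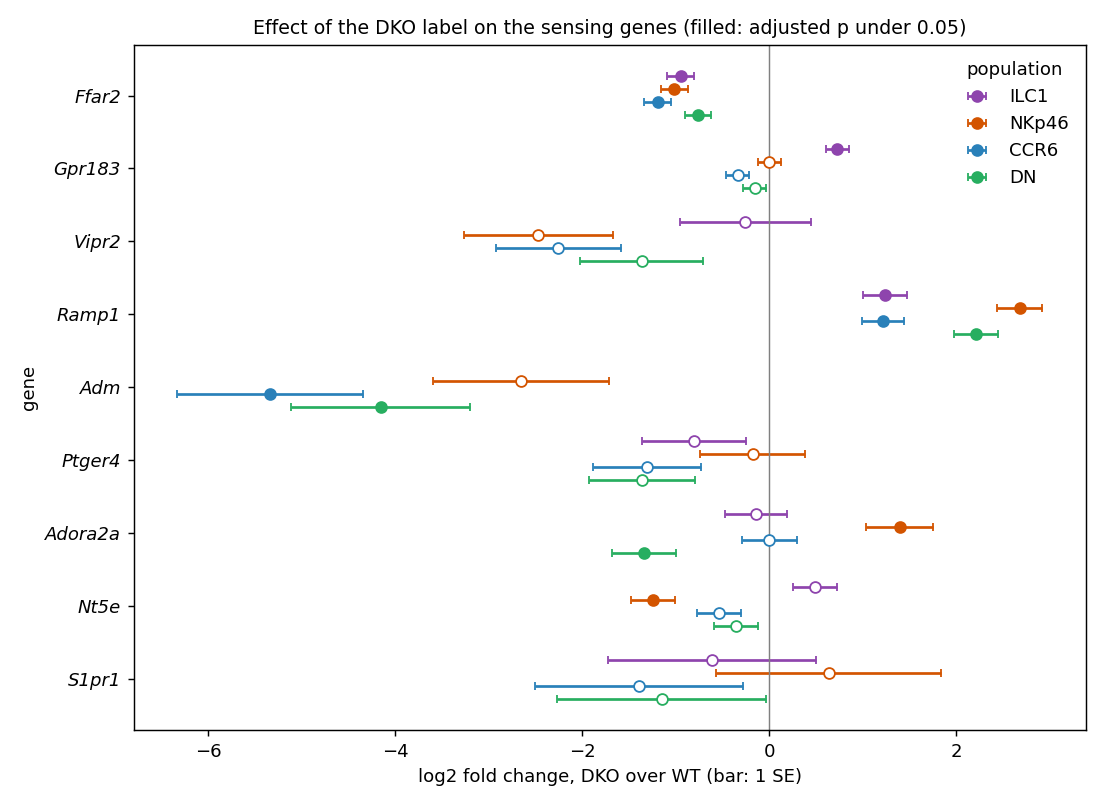
Log2 fold change of DKO over WT for each of the 9 genes in each sorted population, with bars of 1 SE. The SE was derived from the F statistic of edgeR's quasi-likelihood test. Filled points are called at an adjusted p under 0.05. Ffar2 lies between -1.19 and -0.77 in all 4 populations, Ramp1 between 1.21 and 2.68, and Adora2a is on opposite sides of 0 in NKp46 and DN. Adm in ILC1 is not drawn, because WT ILC1 held 2 counts of it.

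Of the neuropeptide genes, Ramp1 was higher in DKO in all 4 populations. RAMP1 pairs with the receptor CALCRL to form the receptor for calcitonin gene-related peptide, whereas pairing with RAMP3 or RAMP2 gives receptors for adrenomedullin. Ramp1 (chromosome 1, 91179822 to 91225196, plus strand) had 62.6, 101 and 78.5 CPM in DKO NKp46, against 11.9, 10.8 and 15.2 CPM in WT NKp46. In DN it had 257, 275 and 258 CPM in DKO, against 65.4, 51.7 and 53.6 CPM in WT. In CCR6 it had 592, 526 and 453 CPM in DKO, against 261, 207 and 209 CPM in WT. Each DKO library lay above each WT library, also in ILC1, where the levels were 24.8, 17.3 and 13.6 CPM in DKO and 10.9, 5.22 and 7.06 CPM in WT.

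The log2 fold change of Ramp1 was 2.68 ± 0.242 in NKp46 (adjusted p = 2.8e-07) and 2.21 ± 0.235 in DN (adjusted p = 2.4e-06). It was smaller in ILC1, at 1.24 ± 0.238 (adjusted p = 0.0071), and CCR6, at 1.21 ± 0.228 (adjusted p = 0.0018). The mean over the populations was 1.83 ± 0.117 (adjusted p = 1.6e-10), and 0.277% of all genes were called higher in all 4. The size differed among populations in the joint test (adjusted p = 0.027), and the effect in NKp46 exceeded that in ILC1 (difference ILC1 minus NKp46 -1.44, adjusted p = 0.048) and that in CCR6 (CCR6 minus NKp46 -1.46, adjusted p = 0.042). In WT cells the order was CCR6, DN, NKp46 and ILC1, and the last 2 were not called apart (adjusted p = 0.066). The ILC1 call was lost without DKO ILC1 library 1 (log2 fold change 0.985, adjusted p = 0.06) and in a fit on the ILC1 libraries alone (1.25, adjusted p = 0.81). The joint test was lost without any 1 of 12 libraries (adjusted p = 0.0501 to 0.083), namely DKO CCR6 2 and 3, DKO DN 1, 2 and 3, DKO ILC1 2, DKO NKp46 2, WT CCR6 1, WT DN 2 and 3, and WT NKp46 1 and 2, and the differences from NKp46 were lost without 8 (ILC1) and 10 (CCR6) of the 12 libraries each compares (0.054 to 0.15).

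Ramp3, the sister of Ramp1, went the other way in all 4 populations. In CCR6 Ramp3 had 48.7, 51.3 and 63.6 CPM in DKO, against 213, 169 and 146 CPM in WT. In NKp46 it had 9.98, 11.8 and 6.93 CPM in DKO, against 71.2, 89.6 and 61.3 CPM in WT. The genotypes did not overlap in any population, and the log2 fold changes of Ramp3 were -2.95 ± 0.379 in NKp46 (adjusted p = 3.4e-05) and -1.86 ± 0.398 in ILC1 (adjusted p = 0.019), with -1.69 ± 0.357 for CCR6 (adjusted p = 0.0052) and -1.64 ± 0.356 for DN (adjusted p = 0.0092). Calcrl, the receptor that both partners serve, was not called in any population; its log2 fold changes lay between -1.28 (NKp46) and -0.13 (ILC1). The Ramp3 call was lost in ILC1 without DKO library 2 or WT library 1 or 2, without the expression filter, and in a fit on the ILC1 libraries alone (adjusted p up to 0.99), and in DN without DKO library 1 or the filter (up to 0.061); it held in NKp46 and CCR6 under every alternative run.

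Levels of Ramp1 and Ramp3 were set against each other as CPM per kilobase of exon. Calcrl was low in every library, from 0.213 CPM per kilobase in WT ILC1 library 2 to 3.07 in WT ILC1 library 1. Its lack of a call at such levels says little. The ratio of Ramp1 to Ramp3 on this scale was 2.12 to 14.1 in the 12 DKO libraries and 0.055 to 1.09 in the 12 WT libraries, and the genotypes did not overlap. It was above 1 in all 12 DKO libraries and in 1 WT library. The highest ratio of each genotype came from ILC1, where Ramp3 was low. Ramp3 had 0.406 CPM per kilobase in DKO ILC1 library 2 (ratio 14.1) and 2.15 in WT ILC1 library 3 (ratio 1.09). In ILC1 the ratio was 5.27, 14.1 and 2.38 in DKO and 0.695, 0.241 and 1.09 in WT. In NKp46 the ratio was 2.86, 3.91 and 5.17 in DKO and 0.0763, 0.055 and 0.113 in WT. In DN it was 2.41, 2.12 and 2.19 in DKO and 0.21, 0.135 and 0.131 in WT. The median over libraries was 3.58 in DKO and 0.226 in WT. The ratio is a description of 2 genes whose own tests are given above.

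**Figure D3:**
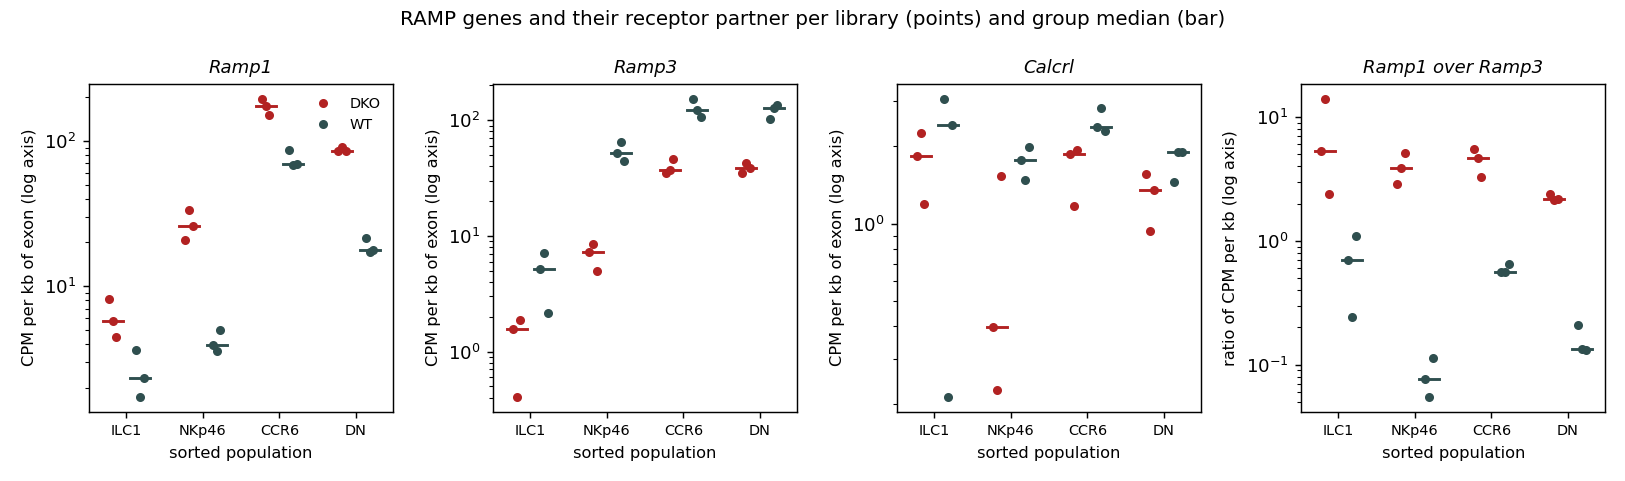
Ramp1, Ramp3 and Calcrl as CPM per kilobase of exon, and the ratio of Ramp1 to Ramp3, in every library on log axes, with DKO left of WT in each population and bars at the median. The ratio is 2.12 or more in all 12 DKO libraries and 1.09 or less in all 12 WT libraries.

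Adm encodes adrenomedullin, a peptide ligand of CALCRL. Its RNA was almost absent from DKO CCR6 and DKO DN. Adm (chromosome 7, 110627661 to 110629820, plus strand) had 0.494, 0.792 and 0.779 CPM in DKO CCR6, against 32.6, 22.5 and 28.6 CPM in WT CCR6. In DN it had 1.10, 0.294 and 0.208 CPM in DKO, against 12.7, 7.46 and 8.36 CPM in WT. Both pairs of groups were far apart, with a log2 fold change of -5.34 ± 0.997 for CCR6 (adjusted p = 0.0017) and of -4.16 ± 0.953 for DN (adjusted p = 0.014). The DN call did not hold without DKO DN library 2 (adjusted p = 0.11), without DKO DN library 3 (0.1), without WT DN library 1 (0.0504) or without the expression filter (0.061).

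In NKp46 Adm had 0, 1.07 and 0 CPM in DKO, against 2.97, 2.53 and 1.37 CPM in WT, and the log2 fold change of -2.66 ± 0.942 was not called (adjusted p = 0.13). All 3 DKO NKp46 libraries lay below WT, and the DKO level came from library 2. Without that library DKO NKp46 held no Adm count, so no fold is given, and the gene was called (adjusted p = 6.2e-04), as it also was with DESeq2 (adjusted p = 0.037). In ILC1 Adm was near 0 in both genotypes, at 0.538, 0.476 and 0.104 CPM in DKO and 0.0645, 0 and 0 CPM in WT. The joint test of equal effects gave an adjusted p of 0.021, which rests on the 2 counts of WT ILC1 and was lost without DKO ILC1 library 2 (0.058) or without the expression filter (0.053).

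Vipr2 encodes VPAC2, a receptor for vasoactive intestinal peptide. Its level was 20.0, 30.8 and 38.6 CPM in DKO CCR6, against 121, 164 and 142 CPM in WT CCR6. The groups lay far apart, and the log2 fold change was -2.26 ± 0.668 with an adjusted p of 0.064. Vipr2 (chromosome 12, 116077726 to 116146261, plus strand) had 6.32, 7.04 and 8.46 CPM in DKO DN, against 20.2, 20.9 and 15.3 CPM in WT DN (-1.37 ± 0.657, adjusted p = 0.41). It had 0, 0.716 and 0.866 CPM in DKO NKp46, against 1.84, 5.4 and 1.34 CPM in WT NKp46 (-2.47 ± 0.796, adjusted p = 0.088). In each of these 3 populations every DKO library lay below every WT library, and in ILC1 the groups overlapped at or below 5.03 CPM.

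Averaged over the 4 populations, the log2 fold change of Vipr2 was -1.59 ± 0.352 and was called (adjusted p = 0.0036). In the CCR6 contrast Vipr2 was called in a fit on the CCR6 libraries alone (adjusted p = 1.5e-04) and without WT ILC1 library 2 (adjusted p = 0.022), as was NKp46 without that library (adjusted p = 0.043) and DN in a fit on the DN libraries alone (adjusted p = 0.0068). In WT cells Vipr2 was higher in CCR6 than in NKp46 by 5.62 (adjusted p = 4.5e-05) and than in DN by 2.92 (adjusted p = 0.011), and higher in DN than in NKp46 by 2.69 (adjusted p = 0.034). The CCR6 to DN pair was lost without WT DN library 1 (0.052) or 3 (0.059), and the DN to NKp46 pair without WT DN library 1 or 2 or WT NKp46 library 1 or 3 (0.082 to 0.19). It was lower in ILC1 than in CCR6 (-5.94, adjusted p = 1e-05) and DN (-3.02, adjusted p = 0.0092).

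Of 14 other tested neuropeptide and neurotransmitter genes, 1, 3, 1 and 2 were called lower in DKO ILC1, NKp46, CCR6 and DN, and none was called higher. Of all genes, 0.277%, 2.17%, 2.04% and 1.34% were called lower there, and 0.78%, 1.99%, 1.93% and 1.49% higher. Beside Ramp3, the genes called lower included Nmur1, the neuromedin U receptor known from ILC2, in NKp46 (-2.08, adjusted p = 0.031). Nmur1 averaged 5.63 ± 0.418 CPM in DKO NKp46 and 23.8 ± 2.65 CPM in WT NKp46 (SD, n = 3 each).

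Ptger4 encodes EP4, a receptor for prostaglandin E2 that raises cAMP. Its genotypes overlapped in every population and no population was called. Ptger4 (chromosome 15, 5206661 to 5244187, minus strand) had 27.2, 68.3 and 71.2 CPM in DKO ILC1, against 43.2, 111 and 137 CPM in WT ILC1 (-0.81, adjusted p = 0.56). It had 24.5, 7.97 and 9.1 CPM in DKO DN, against 65.6, 26.2 and 14.8 CPM in WT DN (-1.36, adjusted p = 0.30). Libraries of one group thus differed by several fold. In CCR6 it had 1.73, 5.53 and 5.34 CPM in DKO and 4.54, 13.1 and 13.4 CPM in WT (-1.31, adjusted p = 0.30), and in NKp46 27.3, 35.4 and 25.0 CPM in DKO and 41.0, 28.5 and 29.9 CPM in WT (-0.18, adjusted p = 0.93).

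All 4 log2 fold changes of Ptger4 were negative and their mean, -0.91 ± 0.282, was called (adjusted p = 0.039). It was not called without the expression filter (0.16) or without any 1 of 14 libraries (0.051 to 0.1); it held without DKO CCR6 2 or 3, DKO DN 1, DKO ILC1 2 or 3, DKO NKp46 2, WT CCR6 1, WT DN 2 or 3 or WT ILC1 1. In WT cells the 1 pair called for Ptger4 was ILC1 over CCR6, at 3.23 (adjusted p = 4.8e-04). Exons of Ptger4 share 1015 bases with Gm15937 and 82 bases with Ttc33 on the other strand, and reads were counted with a strand setting that is not stated. Of 15 other tested prostaglandin genes, 1 was called higher in DKO ILC1, 1 higher and 2 lower in DKO CCR6, and none in NKp46 or DN. Ptgs2, the inducible cyclooxygenase, was higher in DKO ILC1 (2.31, adjusted p = 0.0036) and DKO CCR6 (1.65, adjusted p = 0.014). Hpgds, which makes prostaglandin D2, averaged 1.01 ± 1.21 CPM in DKO CCR6 and 18.6 ± 2.75 CPM in WT CCR6 (SD, n = 3 each; -4.18, adjusted p = 0.0024). Ptgs1 in CCR6 was called lower, with 1 count over the 3 DKO libraries and 242 counts over the 3 WT libraries (adjusted p = 0.0072). Ptger2, the other cAMP-raising prostaglandin E2 receptor, was not called in any population.

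Nt5e encodes CD73, the surface enzyme that makes adenosine from AMP. It was lower in DKO NKp46. Nt5e (chromosome 9, 88327197 to 88372092, plus strand) had 135, 143 and 167 CPM in DKO NKp46, against 320, 406 and 327 CPM in WT NKp46, with no overlap (-1.24 ± 0.239, adjusted p = 0.0029). In CCR6 it had 109, 91.2 and 124 CPM in DKO, against 127, 174 and 171 CPM in WT (-0.54, adjusted p = 0.30). In DN it had 185, 185 and 189 CPM in DKO, against 222, 219 and 275 CPM in WT (-0.36, adjusted p = 0.64). The libraries of these pairs did not overlap either, though neither was called; the CCR6 pair was called without WT ILC1 library 2 (adjusted p = 0.036). In ILC1 the groups overlapped, with 83.3, 96.7 and 101 CPM in DKO and 70.1, 32.7 and 96.8 CPM in WT (0.49, adjusted p = 0.37), and the difference was called without WT ILC1 library 3 (0.88, adjusted p = 0.044).

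The genotype effect on Nt5e differed among populations (adjusted p = 0.041), and the effect in ILC1 exceeded that in NKp46 by 1.73 (adjusted p = 0.019). The joint test held without WT CCR6 library 1 or WT ILC1 library 2 or 3 and was lost without each of the others (adjusted p = 0.052 to 0.11), and the difference was lost without DKO ILC1 3, DKO NKp46 1 or 2, or WT NKp46 2 (0.0504 to 0.056). Averaged over the 4 populations, the log2 fold change of Nt5e was -0.41 ± 0.118 (adjusted p = 0.025), not called without any 1 of 9 libraries (0.051 to 0.06). In WT cells Nt5e was highest in NKp46, followed by DN, CCR6 and ILC1. The libraries of NKp46 and DN did not overlap, nor did those of DN and CCR6, but neither pair was called (adjusted p = 0.28 and 0.17), while CCR6 was below NKp46 (-1.16, adjusted p = 0.0029) and ILC1 was below each of the other 3.

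Adora2a encodes an adenosine receptor that raises cAMP. It went opposite ways in 2 populations. Adora2a (chromosome 10, 75316877 to 75334784, plus strand) had 9.88, 10.9 and 11.8 CPM in DKO NKp46, against 3.49, 2.73 and 6.27 CPM in WT NKp46 (1.39 ± 0.355, adjusted p = 0.026). In DN it had 34.3, 23.3 and 35.4 CPM in DKO, against 86.8, 94.3 and 54.9 CPM in WT (-1.34 ± 0.341, adjusted p = 0.030). Neither pair of groups overlapped. Of all genes, 0.113% were called lower in one population and higher in another.

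In ILC1 Adora2a had 113, 95.8 and 62.0 CPM in DKO and 136, 59.1 and 103 CPM in WT (-0.14, adjusted p = 0.90), and in CCR6 4.56, 3.58 and 3.5 CPM in DKO and 5.3, 4.26 and 2.14 CPM in WT (adjusted p = 1). The effect differed among populations (adjusted p = 0.025), with DN minus NKp46 at -2.73 ± 0.492 (adjusted p = 0.012). In WT cells ILC1 and DN, which were not called against each other (adjusted p = 0.61), stood above NKp46 and CCR6. Leaving out any 1 of 5 NKp46 libraries (all but WT library 3) ended the NKp46 call (adjusted p = 0.051 to 0.16), leaving out any 1 of 5 DN libraries (all but WT library 3) ended the DN call (0.076 to 0.21), and a fit on the NKp46 libraries alone or no expression filter in DN did so too (0.065 and 0.058). The difference of DN from NKp46 was not called without DKO DN library 2 (0.065), WT DN library 2 (0.056) or WT NKp46 library 1 (0.055), and the joint test not without those 3, DKO DN library 1, DKO NKp46 library 2 or 3, WT DN library 1 or WT NKp46 library 2 (0.053 to 0.078). In DN the T cell and ILC2 marker sums given above were also lower in DKO; in NKp46, 1 of the 7 T cell markers, Trac, was called higher in DKO (1.28, adjusted p = 0.017), while their sum was 460 to 567 CPM in DKO and 457 to 541 CPM in WT. Their part in the Adora2a values was not tested.

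Of 20 other tested adenosine and purine genes, 1 was called lower in DKO ILC1; 1 was called higher and 5 lower in NKp46, 1 higher and 3 lower in CCR6, and 1 higher and 2 lower in DN. Slc29a1, the equilibrative transporter that carries adenosine across the membrane, was lower in DKO NKp46 (-0.94, adjusted p = 0.0018), CCR6 (-1.57, adjusted p = 3.3e-06) and DN (-0.81, adjusted p = 0.0073). Adk, the kinase that turns adenosine into AMP, was higher in DKO NKp46 (1.58, adjusted p = 0.046), CCR6 (1.57, adjusted p = 0.045) and DN (1.85, adjusted p = 0.02). Its 3 DKO CCR6 libraries had 203 to 271 CPM and its 3 WT CCR6 libraries 65.9 to 94.3 CPM. P2ry1, an ADP receptor, was lower in DKO ILC1 (-3.93, adjusted p = 0.0045) and NKp46 (-2.08, adjusted p = 0.044). P2ry14, a receptor for UDP-sugars, was lower in DKO NKp46 (-4.02, adjusted p = 0.0048) and DN (-2.89, adjusted p = 0.028), where it averaged 0.174 and 1.09 CPM in DKO and 2.86 and 8.08 CPM in WT. Dpp4, which binds adenosine deaminase in human cells, was lower in DKO CCR6 (-2.32, adjusted p = 0.016). Enpp1 was called lower in CCR6, where it averaged under 1 CPM in both genotypes. Entpd1, the ectonucleotidase CD39 that supplies AMP, and Adora2b, the low-affinity adenosine receptor, were not called.

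S1pr1, the sphingosine 1-phosphate receptor, was low throughout and was called in no population. S1pr1 (chromosome 3, 115710433 to 115715072, minus strand) had 4.18, 6.92 and 6.34 CPM in DKO CCR6, against 16.9, 10.1 and 18.8 CPM in WT CCR6 (-1.39 ± 1.11, adjusted p = 0.73). It had 1.74, 0.392 and 1.71 CPM in DKO DN, against 2.69, 3.29 and 2.61 CPM in WT DN (-1.15, adjusted p = 0.82). In both populations the DKO libraries lay below the WT libraries. In ILC1 it had 7.99, 0.616 and 2.15 CPM in DKO and 6.55, 8.36 and 1.5 CPM in WT, and in NKp46 it had 1.9, 0 and 0 CPM in DKO and 0.306, 0.883 and 0 CPM in WT, with overlap in both. The CCR6 difference was called in a fit on the CCR6 libraries alone (adjusted p = 0.016). In WT cells the 1 pair called for S1pr1 was CCR6 over NKp46, at 5.20 (adjusted p = 0.017), lost without WT NKp46 library 1 (0.093) or 3 (0.074).

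Of 21 other tested sphingosine phosphate and lysolipid genes, 1 was called higher in DKO ILC1, 2 higher and 3 lower in NKp46, 3 higher in CCR6 and 1 higher in DN. Plpp3, a lipid phosphatase that breaks down sphingosine 1-phosphate and lysophosphatidic acid outside cells, was higher in DKO ILC1 (4.40, adjusted p = 3.5e-05), NKp46 (2.23, adjusted p = 0.0045) and DN (2.03, adjusted p = 0.0098). Klf2, a transcription factor that drives S1pr1 in T cells, was higher in DKO NKp46 (1.54, adjusted p = 0.011) and CCR6 (1.34, adjusted p = 0.025). S1pr4, a sister receptor of lymphocytes, was higher in DKO CCR6 (0.92, adjusted p = 0.0028). Cd69, whose protein draws S1PR1 off the surface, was lower in DKO NKp46 (-0.67, adjusted p = 0.045), and Spns2, a sphingosine 1-phosphate exporter, averaged 0.0605 CPM in DKO NKp46 and 1.32 CPM in WT NKp46 (-4.38, adjusted p = 0.027). Ltb4r1, the leukotriene B4 receptor, was lower in DKO NKp46 (-0.77, adjusted p = 0.016) and higher in DKO CCR6 (1.39, adjusted p = 3.5e-05).

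Downstream of these receptors, 38 tested genes of G protein and cAMP signalling gave no call in ILC1, 3 higher in DKO NKp46, 5 higher and 2 lower in CCR6, and 2 higher and 1 lower in DN. Arrb1, a β-arrestin that uncouples receptors, was higher in DKO CCR6 (1.56, adjusted p = 3.9e-05) and DN (1.51, adjusted p = 8.7e-05), and its sister Arrb2 in CCR6 (0.61, adjusted p = 0.013). Adcy7, an adenylyl cyclase of blood cells, was higher in DKO CCR6 (0.68, adjusted p = 0.011) and DN (0.65, adjusted p = 0.02). Nr4a2, an orphan nuclear receptor induced by cAMP, was higher in DKO NKp46 (1.41, adjusted p = 0.0053) and CCR6 (1.16, adjusted p = 0.021). Pde7b, which degrades cAMP, and Rgs1, which shortens G protein signals, were lower in DKO CCR6 (-1.79, adjusted p = 0.0049, and -0.85, adjusted p = 0.0083). Over the 7 pathway lists, 35 of 127 tested genes that are not members were called in at least 1 population, 27.6%, beside 7.65% of all genes. The lists were drawn up with earlier results of these data known, so nothing particular to them is read from this. Of 46 calls of the pathway genes named above, 14 held under every alternative run: Ramp3 in NKp46 and CCR6, Hpgds, Slc29a1 in NKp46 and CCR6, P2ry14 in NKp46, S1pr4, Plpp3 in NKp46, Ltb4r1 in CCR6, Pde7b, Nr4a2 in NKp46, Rgs1 and Arrb1 in both. Ptgs2 and Plpp3 in ILC1 were lost in a fit on the ILC1 libraries alone, and the other 30 calls without at least 1 library; those of Adk, Cd69, Nmur1 and P2ry1 in NKp46 were lost without any 1 of the 6 libraries compared.

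**Figure D4:**
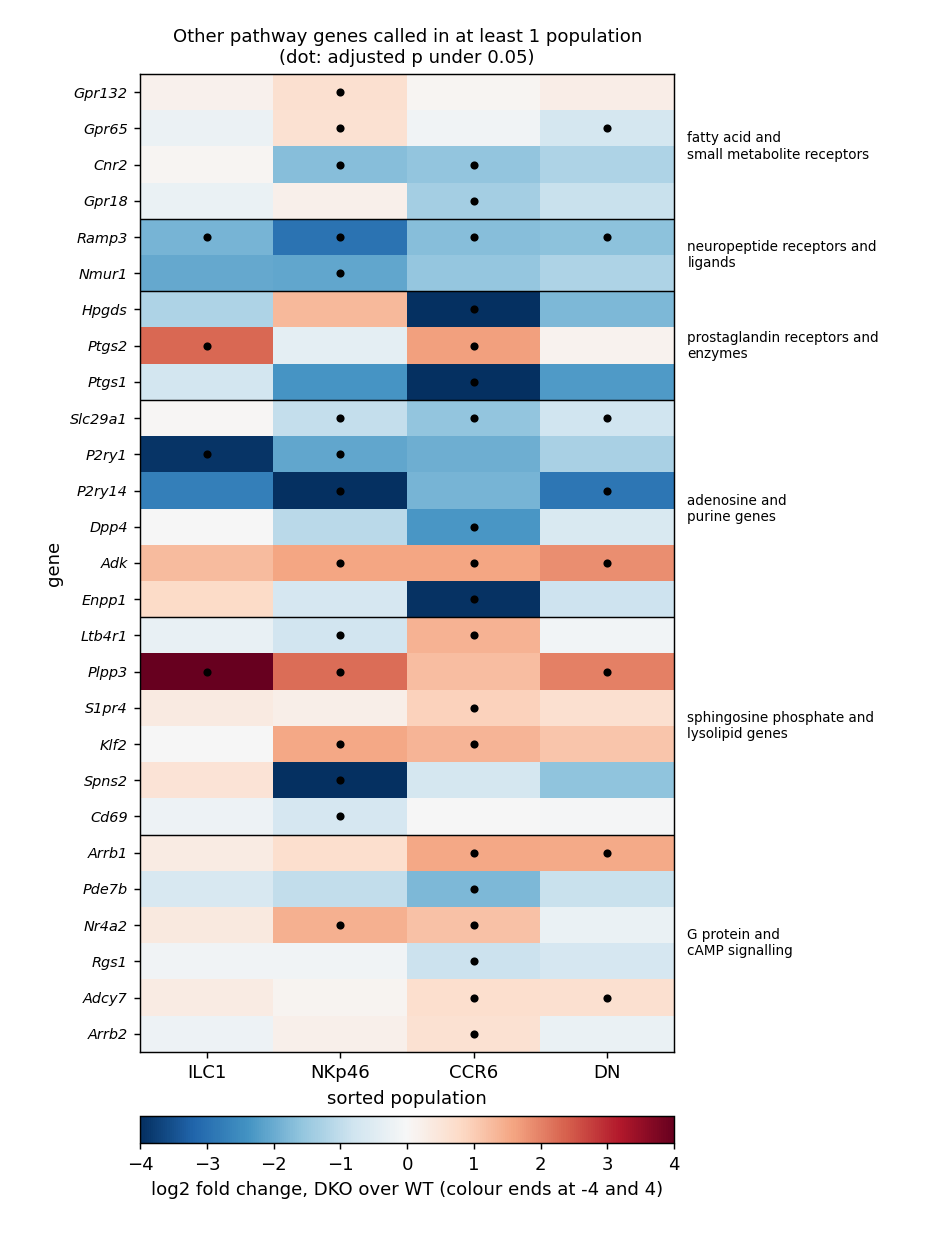
Log2 fold change of DKO over WT for 27 pathway genes that are not among the 9, in the 4 sorted populations, grouped by pathway; red is higher in DKO, blue lower, the colour scale ends at 4 in both directions, and a dot marks an adjusted p under 0.05. Ramp3 is the gene with a dot in all 4 columns, blue in each, and Ltb4r1 changes colour between NKp46 and CCR6.

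All 9 members differed among the 4 WT populations in the joint test, against 19.1% of all genes; S1pr1 did not pass without WT CCR6 library 1 or 3, WT NKp46 library 1 or 3 (adjusted p = 0.065 to 0.086) or the expression filter (0.094). Over the 6 pairs of WT populations, members were called in 30 of 54 tests. ILC1 against CCR6 gave 2 called higher and 6 lower in ILC1, where 9.33% and 9.99% of all genes were called (19.3% together). ILC1 against DN gave 0 higher and 6 lower (2.88% and 4.73%, 7.61% together), and ILC1 against NKp46 1 higher and 4 lower (5.13% and 5.6%, 10.7% together). CCR6 against NKp46 gave 4 higher and 1 lower in CCR6 (2.82% and 3.41%, 6.23% together) and CCR6 against DN 2 higher and 1 lower (1.95% and 3.89%, 5.84% together). DN against NKp46 gave 3 higher and 0 lower in DN (2.25% and 0.723%, 2.97% together). By their means Vipr2, S1pr1, Ramp1, Adm and Ffar2 were highest in WT CCR6, although no pair of NKp46, CCR6 and DN was called in Ffar2, nor CCR6 against DN in Adm (adjusted p = 0.37) or S1pr1 (0.28), where the libraries did not overlap. Nt5e was highest in NKp46, and Ptger4 and Adora2a in ILC1. Per kilobase of exon, the most abundant members in WT cells were Gpr183, at 105 to 170 CPM per kilobase over the 4 populations, and Ffar2, at 54.4 to 157. Ramp1 ranged from 2.56 to 74.8, Nt5e from 7.73 to 40.8, Adora2a from 1.27 to 32.5, Vipr2 from 0.48 to 31.9, Adm from 0.0133 to 17.2, Ptger4 from 1.56 to 14.6 and S1pr1 from 0.13 to 5.01 CPM per kilobase.

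For each member, the named genes most like it over the 24 libraries were found by Pearson's r of log2(CPM + 1) among 10197 annotated genes with a group mean of at least 5 CPM. All libraries share genotype and population as sources of variation, so r describes a shared pattern over these groups. Ffar2 was closest to Hs6st2 (r = 0.97) and P2ry1 (0.963), and P2ry1 is itself among the genes lower in DKO above. Ramp1 was closest to Aldh2 (0.975) and Hk3 (0.97), and Adora2a to Il21r (0.977) and Cd2 (0.969). Vipr2 was closest to Bmp2 (0.953) and Fut4 (0.95), and Adm to Deup1 (0.967) and Dsg2 (0.946). Nt5e was closest to Ucp3 (0.925) and Hlcs (0.917), Ptger4 to Dse (0.919) and Prkcq (0.909), Gpr183 to Chtf18 (0.861) and BC048403 (0.768), and S1pr1 to Cd74 (0.852). Among the members themselves, Ramp1 and Ptger4 had the most negative r (-0.864), and Vipr2 and Adm the most positive (0.768).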

How the data were processed

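RNA of 24 libraries of sorted ILC was measured by bulk RNA-seq with a low-input SMARTer kit, from 10 ng of total RNA and 12 to 15 PCR cycles, per the labels' protocols. The authors deposited 1 table of read counts per Ensembl gene, which are whole numbers and not normalized, as its values show. The submitters' processing notes name mm10, STAR 2.7.9a, featureCounts 2.0.3, Salmon 1.5.2 and DESeq2, without saying which made the table. The sources used here do not give the strand setting. No molecular identifiers are named, so counts include PCR copies, and low counts carry counting error that these copies can enlarge.

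Groups came from the labels, and 1 title that lacks a digit of NKp46 was read by its description. Of 55774 rows, 455 repeated an ID, and 1 row per ID was kept. In R 4.3.3, edgeR 4.0.16 scaled the counts by trimmed means of M values and removed genes with low counts, judged by group. Its robust quasi-likelihood model took 1 mean for each of the 8 groups, and p-values were adjusted by Benjamini-Hochberg over 21286 genes in each test. CPM used the same factors. The SE of a log2 fold change was its absolute value divided by the square root of the F statistic of its test. The fit was tested on simulated data. The genotypes were compared within each population, on average and between populations, and WT populations were compared in pairs. Alternatives were other size factors, DESeq2 1.42.0, no filter, the replicate number as a block, only the groups compared, repeated rows kept, and each library left out.

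The 9 genes and the pathway and marker lists were chosen with earlier results of these data known. From each list up to 6 genes called in a genotype contrast were named by smallest adjusted p, and Calcrl, Ramp2, Ramp3, Ptger2, Adora2b, Entpd1 and Klf2 in any case; the group means of Ramp2 reached at most 0.476 CPM. Some genes that these rules name are not reported here. Coordinates are from GENCODE release M21 on GRCm38 (mm10).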

Additional observations from a re-analysis of the deposited data

Results flagged for a closer look

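For 5 of the 9 genes the genotype effect differed between sorted populations in edgeR's joint test of the 4 effects, with Benjamini-Hochberg adjustment over all genes, against 1.37% of all genes. Gpr183 had the smallest value (adjusted p = 0.0059), with ILC1 higher in DKO by 0.73 on the log2 scale and the other populations at or below 0. Adm followed (adjusted p = 0.021), with -5.34 in CCR6 and -4.16 in DN, on only 2 counts in WT ILC1. Adora2a (adjusted p = 0.025) was higher in DKO NKp46 (1.39) and lower in DKO DN (-1.34). Ramp1 (adjusted p = 0.027) was higher in DKO throughout, by 1.21 in CCR6 to 2.68 in NKp46. Nt5e (adjusted p = 0.041) was lower in DKO NKp46 (-1.24) and at 0.49 in ILC1. Of these, Gpr183 passed without any 1 of the 24 libraries; the other 4 did not.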

How the results depend on the processing

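Of 2887 values of the 9 genes recomputed under another setting, 2689 kept their side of the threshold, 156 lost a call and 42 gained one. None changed sign with a call. Direction was compared only where a value was called in the main fit or under the other setting, and joint tests have none. Ffar2 in NKp46, CCR6 and DN, Ramp1 in NKp46, CCR6 and DN, Adm in CCR6 and Nt5e in NKp46 kept their calls under every alternative run. In a fit on only the groups compared, 5 of the 9 genes were called in CCR6 (3 in the fit of all groups) and 0 in ILC1 (3 in the fit of all groups), where 3 had an unadjusted p under 0.05 and DESeq2 called 3. Without the expression filter 2 were called in DN (4 with it). Over all genes, DESeq2 called 773 in ILC1 (edgeR 225), 1735 in NKp46 (885), 1344 in CCR6 (846) and 1068 in DN (602). Fits on only the groups compared called 11 in ILC1, 1723 in CCR6 and 1330 in DN. With 1 library left out, the called number of the 9 genes ranged from 3 to 5 in both NKp46 and CCR6, 2 to 4 in both ILC1 and DN, 3 to 6 for the mean effect, 2 to 5 for unequal effects, 8 to 9 for WT populations and 27 to 32 for WT pairs. Over all genes it ranged from 145 (without DKO ILC1 3) to 665 (without WT ILC1 3) in ILC1, 529 (without WT NKp46 2) to 1388 (without WT ILC1 2) in NKp46, 573 to 1202 in CCR6, and 357 (without DKO DN 2) to 918 (without WT ILC1 2) in DN. Genes with unequal effects numbered 291, and 1116 with DESeq2, 623 without the filter and 168 to 564 with 1 library left out. For WT pairs the totals ranged from 338 to 1210 for DN against NKp46 (main 633), 736 to 2212 for CCR6 against DN (1243), 2019 with DESeq2 and 2432 with those groups alone for CCR6 against NKp46 (1327), 1823 with those groups alone for ILC1 against CCR6 (4113), 430 to 2691 for ILC1 against DN (1619) and 487 to 3675 for ILC1 against NKp46 (2285). The cause of these shifts was not tested.

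Replicate numbers are shared between groups, and the sources used here do not say what they mark. Deviations from group means correlated at a mean r of 0.065 over 12 same-numbered pairs of the same population (3 above 0.1) and -0.033 over 24 pairs with different numbers. The mean was 0.061 over 36 same-numbered pairs of the same genotype (10 above 0.1) and -0.031 over 72 others. For 16 of 24 libraries, the closest of the 3 libraries of the same population in the other genotype had the same number. Whether the numbers mark pairs was not tested. With this number as a block, the genotype calls of the 9 genes changed for Vipr2 in CCR6 (adjusted p = 0.039, against 0.064) and for the mean effect of Ptger4 (adjusted p = 0.051, against 0.039). Ptger4 was below the same-numbered WT library in 3 of 3 DKO libraries in ILC1, CCR6 and DN and in 2 of 3 in NKp46. The block fit called none of these (adjusted p = 0.59, 0.34, 0.33 and 0.93). This block takes 1 shift per number, shared by all 4 populations. Yet library 1 was lowest for Ptger4 in ILC1 and CCR6 and highest in DN, in both genotypes. The block cannot remove such a pattern, so it does not decide the same-numbered differences. In WT cells the block also separated NKp46 from ILC1 for Ramp1 (adjusted p = 0.046). Some groups held few counts over their 3 libraries, such as Adm in WT ILC1 (2), S1pr1 in WT NKp46 (53) and Vipr2 in DKO NKp46 (42). Depth limits what can be read from such groups.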
